A study of Mus musculus with 9 samples.

Results

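The 34 genes described here encode the enzymes of glycolysis, lactate dehydrogenase, the pyruvate dehydrogenase complex and the tricarboxylic acid (TCA) cycle, together with cytosolic malate dehydrogenase and pyruvate carboxylase. They were chosen by name, as the rows of the deposited count table whose Ensembl IDs carry these symbols. No measured value was in the rule, but earlier results of these data were known when the list was chosen. They are 34 of the 49315 genes in that table, and all 34 were among the 18492 genes with enough reads to be tested.

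RNA was sequenced from individual whole brains of wild-type C57BL/6J mice, males per the study's methods, without any treatment. The young group held 5 mice of 3 months by the labels (the study's methods give a range that reaches a month further) and the old group held 4 mice of 33 months (replicates 1, 3, 4 and 5; old replicate 2 was not analysed here). PolyA-selected libraries with ERCC spike-in were made from total RNA, and between 14229259 and 21150439 reads were counted on genes per library. Whole brain mixes neurons, glia, vessels and blood. A lower level in such tissue can come from fewer cells of a type or from less RNA per cell, and these cannot be told apart. Marker genes of neurons, astrocytes and oligodendrocytes were found in every library.

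Glycolysis splits glucose into pyruvate in the cytosol. Lactate dehydrogenase interconverts pyruvate and lactate, and the pyruvate dehydrogenase complex carries pyruvate carbon into the mitochondrial TCA cycle, whose dehydrogenases feed electrons to the respiratory chain. Brain depends on glucose more than most tissues do, and glia and neurons use different isozymes at several steps: Aldoc is an astrocyte gene, Eno2 is the neuronal enolase, and the LDHA and LDHB subunits are associated with lactate formation and lactate use, respectively.

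Levels are given as CPM, the usual depth-scaled read count, with library sizes adjusted by TMM for composition. Levels of different genes are compared only as CPM per kb of exon. Exon length counts every annotated exon base of a gene, for example 4133 for Gapdh and 1570 for Ldhb. It can exceed the length of the transcript expressed, so the order of genes depends on the annotation. Most of these enzymes were among the most abundant transcripts of the brain. On the scale of CPM per kb, 25 of the 34 lay above the 90th percentile of all tested genes and 8 above the 99th. Aldoa, the aldolase found in most tissues, was the highest at 436 CPM per kb, followed by Aldoc at 292, Gapdh at 284, Ldhb at 247 and Pkm, the pyruvate kinase gene, at 243. The libraries of Aldoc and Gapdh overlapped, as did those of Ldhb and Pkm, so these neighbours have no firm order. Hk1, the hexokinase of neurons and most brain cells, had 40.2 CPM per kb. Hk2, the inducible hexokinase of muscle and other tissues, was far below every other member at 1.34 CPM per kb. Its lowest raw count, 102, was also the lowest of any member, and the highest raw count in the set was 26143. Together the 34 genes took from 11630 to 12085 CPM in the young and from 11364 to 11909 CPM in the old libraries.

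**Figure D1:**
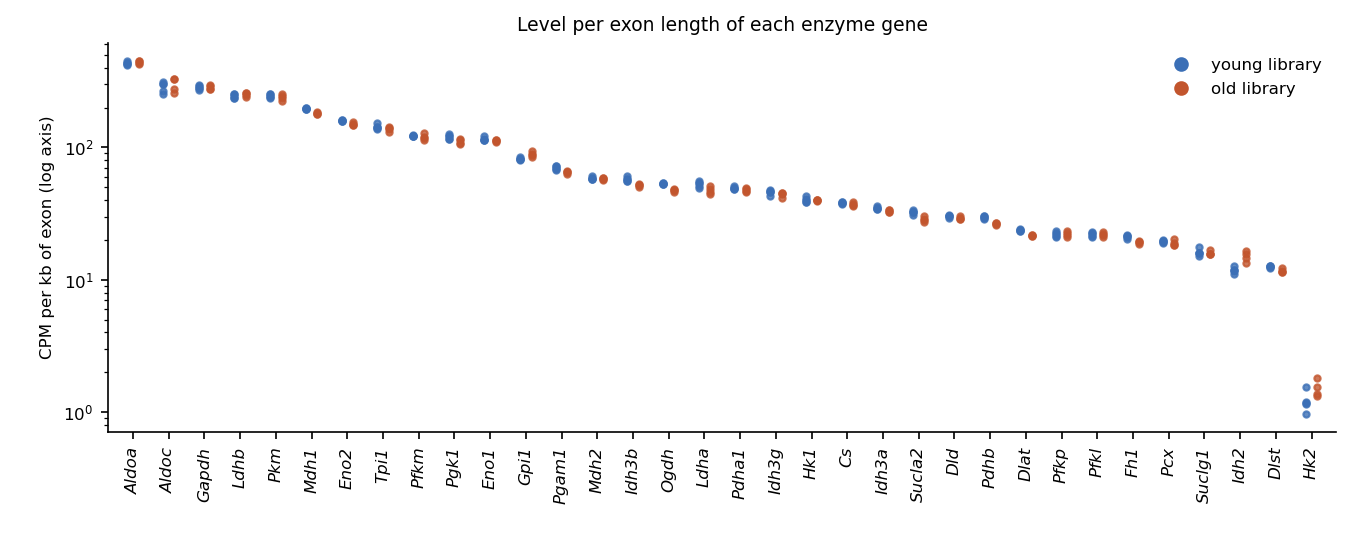
Level of each enzyme gene in CPM per kb of exon, on a log axis, with 5 young libraries (blue) and 4 old libraries (orange) as points, ordered from the highest gene to the lowest. Aldoa at 436 and Hk2 at 1.34 mark the ends of the range, and at this scale the young and old points of most genes lie on top of each other.

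Old and young brains were compared for each gene with edgeR's quasi-likelihood test, with p-values adjusted by Benjamini-Hochberg over all 18492 genes and a threshold of 0.05. Differences are log2 fold changes, old minus young. Of the 34 enzymes, 2 rose, Idh2 and Gpi1, and 8 fell: Ogdh, Pdhb, Sucla2, Dlat, Idh3b, Mdh1, Fh1 and Ldha. The 8 are 23.5% of the set, beside 4.89% of all tested genes that were lower, and the 2 are 5.88%, beside 6.09% that were higher. Because the list was chosen with earlier results known, these shares describe the set and do not test it. Abundant genes were called lower more often: among the 4039 tested genes at or above 12.2 CPM per kb, a level that every member except Hk2 reached, 10% were lower and 7.18% were higher. The members were also measured more precisely than most genes, with a median standard error of 0.036 against 0.085 over all genes.

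The changes were small. None of the 34 passed the fold change threshold of 0.58 on the log2 scale that the study applied, in edgeR's test or in DESeq2's, whereas 2.5% of all tested genes passed it together with the adjusted p; without adjustment, 16 members had a p under 0.05. The median log2 fold change of the members was -0.04, beside -9.2e-05 over all tested genes. For the 4039 tested genes at or above 12.2 CPM per kb, the median was -0.019. Of the 34 values, 27 were below 0, beside 9249 of the 18492 tested genes and 57.3% of those 4039. The median difference in mean CPM between the ages, in either direction, was 3.83%. By comparison, the median coefficient of variation between brains of the same age was 2.80% in the young and 3.17% in the old. The old libraries lay entirely above the young for 2 members, Gpi1 and Idh2, beside 6.5% of all tested genes, and entirely below for 10 members, beside 6.08% of all tested genes. These 10 were Pgam1, Eno2, Pdhb, Dlat, Idh3a, Idh3b, Ogdh, Sucla2, Fh1 and Mdh1.

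**Figure D2:**
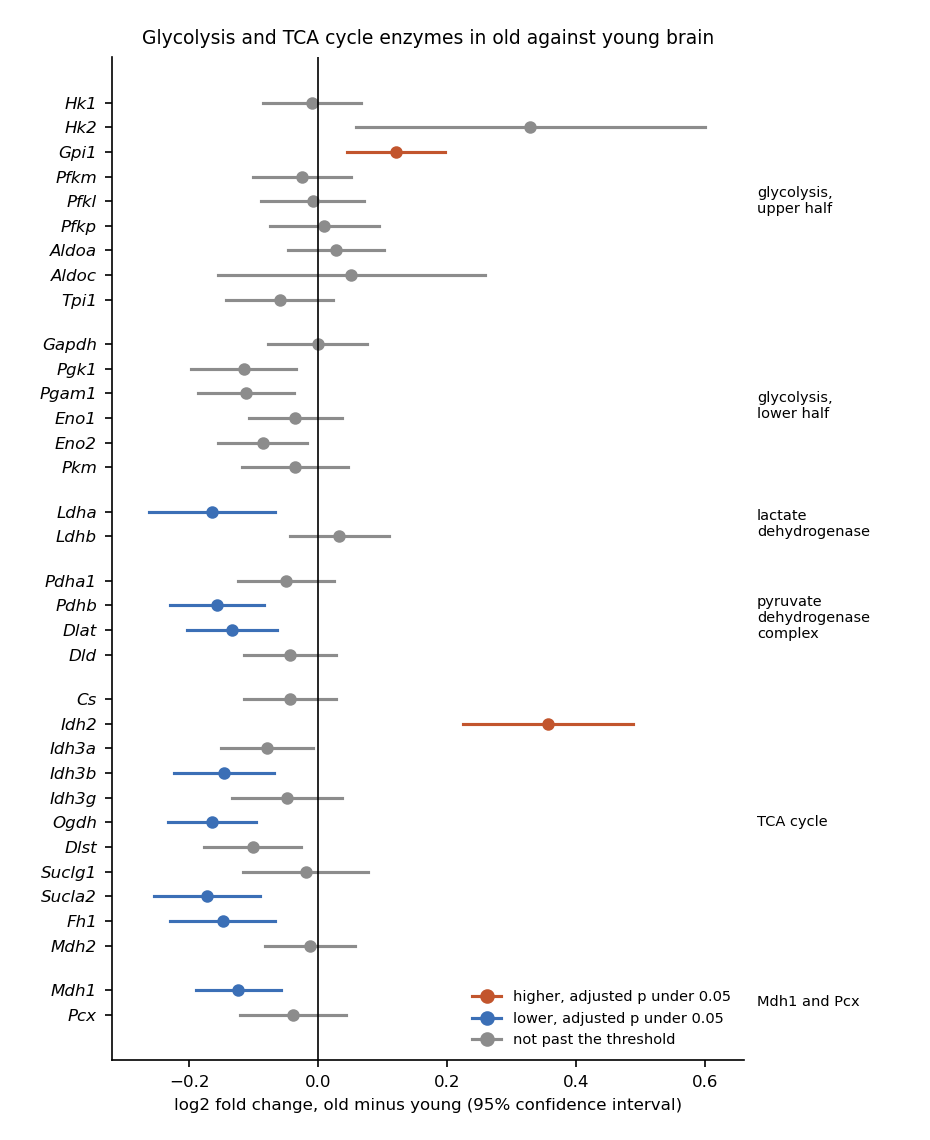
Log2 fold change (old minus young, x axis) of each of the 34 enzyme genes with its 95% confidence interval, grouped by step of the pathway; orange marks the 2 genes that rose (Gpi1 is below 0 on the log2(TPM + 1) scale, but 0.10 above the median of all genes there), blue the 8 that fell and grey the rest. Of the 15 genes of the pyruvate dehydrogenase complex and TCA cycle, 14 sit left of 0, and Idh2 at 0.36 is the exception.

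The mitochondrial steps held most of the calls. Of the 15 genes of the pyruvate dehydrogenase complex and the TCA cycle, 6 fell, 1 rose and 8 did not pass, with a median log2 fold change of -0.08. Their summed level ranged from 2139 to 2188 CPM in the young and from 2019 to 2071 CPM in the old libraries, without overlap. The 17 genes of glycolysis and lactate dehydrogenase had 1 that rose, 1 that fell and 15 that did not pass, with a median of -0.01. The 2 parts of glycolysis differed. In its lower part all 6 genes were below 0, with a median of -0.06, and DESeq2 called 3 of them lower. In its upper part 5 of 9 genes were above 0 and 4 below, with a median of 0.01. The sums of the 17 genes overlapped, from 8871 to 9299 CPM in the young and from 8778 to 9275 CPM in the old. The counts of both sets stand beside 4.89% of all tested genes that were lower and 6.09% that were higher. Among the 4039 tested genes at or above 12.2 CPM per kb, 10% were lower and 7.18% were higher. The median log2 fold change of those 4039 was -0.019.

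Of the pyruvate dehydrogenase complex, the set covers the E1 subunits encoded by Pdha1 and Pdhb, the E2 acetyltransferase Dlat and the E3 dehydrogenase Dld. Dld is shared with other complexes. Pdhb (chr14:8165996-8173025) measured 114, 111, 114, 116 and 116 CPM in the young brains and 99.7, 104, 102 and 104 CPM in the old. Every old library was below every young library, and the log2 fold change was -0.16 ± 0.035 (SE; edgeR, adjusted p = 0.0073). Dlat (chr9:50634633-50659780) had 118, 114, 117, 116 and 114 CPM in young and 106, 106, 104 and 105 CPM in old brains. These groups were apart as well, and the brains of each age lay close together, for a log2 fold change of -0.13 ± 0.033 (SE; edgeR, adjusted p = 0.014).

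The other subunits of the complex did not pass. Pdha1 had a log2 fold change of -0.05 with a 95% confidence interval from -0.12 to 0.02, and Dld one of -0.04 from -0.12 to 0.03. A further 16.1% of the exon length of Pdha1 is shared with Map3k15 on the opposite strand, and the study's methods state counting by strand for strand-specific libraries without saying whether these were such libraries, so part of its reads may belong to that gene.

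Within the cycle, the citrate synthase gene Cs, which codes for the entry enzyme, did not pass, at -0.04 with an interval from -0.12 to 0.03. Isocitrate is oxidised in mitochondria by the NAD-dependent IDH3, made of the subunits encoded by Idh3a, Idh3b and Idh3g, and by the NADP-dependent IDH2. Idh3b (chr2:130279309-130284547) fell from 198, 191, 208, 189 and 196 CPM in the young to 178, 172, 182 and 178 CPM in the old brains. No old library reached the lowest young value, and the log2 fold change was -0.15 ± 0.037 (SE; edgeR, adjusted p = 0.016). Idh3a, the catalytic subunit, ranged from 174 to 183 CPM in young and from 164 to 170.1 CPM in old brains. Its groups did not overlap either, but with a log2 fold change of -0.08 it did not pass (edgeR, adjusted p = 0.15). Idh3g stood at -0.05 with an interval from -0.13 to 0.04.

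Idh2 (chr7:80094846-80115392) went the other way. It measured 29.9, 30.6, 32.7, 28.5 and 30.9 CPM in the young and 42.9, 34.5, 37.5 and 40.8 CPM in the old brains. Every old brain exceeded every young brain, and the mean rose by 27.5%, a log2 fold change of 0.36 ± 0.062 (SE; edgeR, adjusted p = 0.0015). IDH2 yields NADPH, which mitochondria use to reduce glutathione and thioredoxin. It had the highest fold change of the set and the lowest p-value, and it was also among the least abundant, at 13.2 CPM per kb.

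The alpha-ketoglutarate dehydrogenase complex follows, with Ogdh as its E1 and Dlst as its E2 component. Ogdh (chr11:6291633-6356642) had 288, 287, 293, 288 and 296 CPM in young brains and 252, 263, 261 and 261 CPM in old ones. The gap between the groups was much wider than the spread within either of them, for a log2 fold change of -0.16 ± 0.032 (SE; edgeR, adjusted p = 0.0035). Dlst ranged from 117 to 123 CPM in the young and from 109.7 to 117 CPM in the old. Only the lowest young and the highest old library met, and at -0.10 it did not pass (edgeR, adjusted p = 0.075).

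Succinyl-CoA synthetase joins the alpha subunit of Suclg1 to a beta subunit, of which Sucla2 codes for the ATP-forming form that dominates in brain. Sucla2 (chr14:73525319-73596142) fell from 130.2, 129, 122, 134 and 129.9 CPM in the young to 113, 114, 121 and 109.9 CPM in the old. The highest old library lay just under the lowest young library, and the log2 fold change of -0.17 ± 0.039 was the most negative of the set (SE; edgeR, adjusted p = 0.0086). Suclg1 was at -0.02, with an interval from -0.12 to 0.08.

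Fumarase and malate dehydrogenase close the cycle. Fh1, the fumarase gene (chr1:175600374-175625635), had 72.4, 74.4, 71.7, 69.5 and 72.6 CPM in young and 65.2, 62.8, 66.2 and 66.0 CPM in old brains. The groups were apart, with a log2 fold change of -0.15 ± 0.038 (SE; edgeR, adjusted p = 0.018). The mitochondrial malate dehydrogenase gene Mdh2 stood at -0.01 with an interval from -0.08 to 0.06. Its cytosolic counterpart Mdh1 (chr11:21556787-21572367), part of the malate-aspartate shuttle, measured 502, 508, 504, 505 and 507 CPM in the young and 458, 466, 474 and 457 CPM in the old. The young brains differed from each other by very little, with a coefficient of variation of 0.491%, and Mdh1 fell by 0.12 on the log2 scale (SE 0.032; edgeR, adjusted p = 0.017). Without old replicate 5 it no longer passed (edgeR, adjusted p = 0.053). Pcx, whose product refills the cycle with oxaloacetate and is found mainly in astrocytes, was at -0.04 with an interval from -0.12 to 0.04.

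Marker genes of brain cell types were read beside the enzymes. The counts by list, here and for vessels and blood below, stand beside 6.09% of all tested genes higher and 4.89% lower. Of 10 neuronal markers, none was at 0 and 3 fell: Stmn2 by 0.27, Map2 by 0.14 and Slc17a6, a glutamate transporter of subcortical neurons, by 0.40 on the log2 scale. The other 7 did not pass, and among them Gad1 stood at 0.32, Gad2 at 0.10, Syt1 at 0.09 and Nefl at -0.20. The summed level of the list ranged from 6400 to 6890 CPM in the young and from 6236 to 6788 CPM in the old libraries, which overlap. Of 8 astrocyte markers none passed in edgeR's test, 2 had an unadjusted p under 0.05, and DESeq2 called 1 higher (Gjb6) and 1 lower (Gja1). Their sums ranged from 3619 to 3921 CPM in the young and from 3728 to 3818 CPM in the old. Of 6 reactive astrocyte markers, 3 rose (Vim, Osmr and Cd44; DESeq2 called all 6 higher) and all 6 values were above 0, with sums from 261 to 637 CPM in the young and from 605 to 865 CPM in the old. All 8 microglial markers were above 0 and 1 rose (Tmem119), with sums from 212 to 291 CPM in the young and from 282 to 339 CPM in the old. Of 8 genes of activated microglia, 3 rose (Axl, Cd68 and Lgals3), with sums from 90.2 to 155 CPM and from 125 to 161 CPM. Among 8 oligodendrocyte markers, Mbp and Mobp rose, Mog fell and 5 did not pass, with sums from 6315 to 7395 CPM and from 6904 to 8511 CPM. Of 5 markers of oligodendrocyte precursors, Gpr17 and Olig1 fell and 3 did not pass, with sums from 276 to 289 CPM in the young and from 246 to 254 CPM in the old. No marker of these lists was at 0. The part of cell composition in the changes of the enzymes was not tested.

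**Figure D3:**
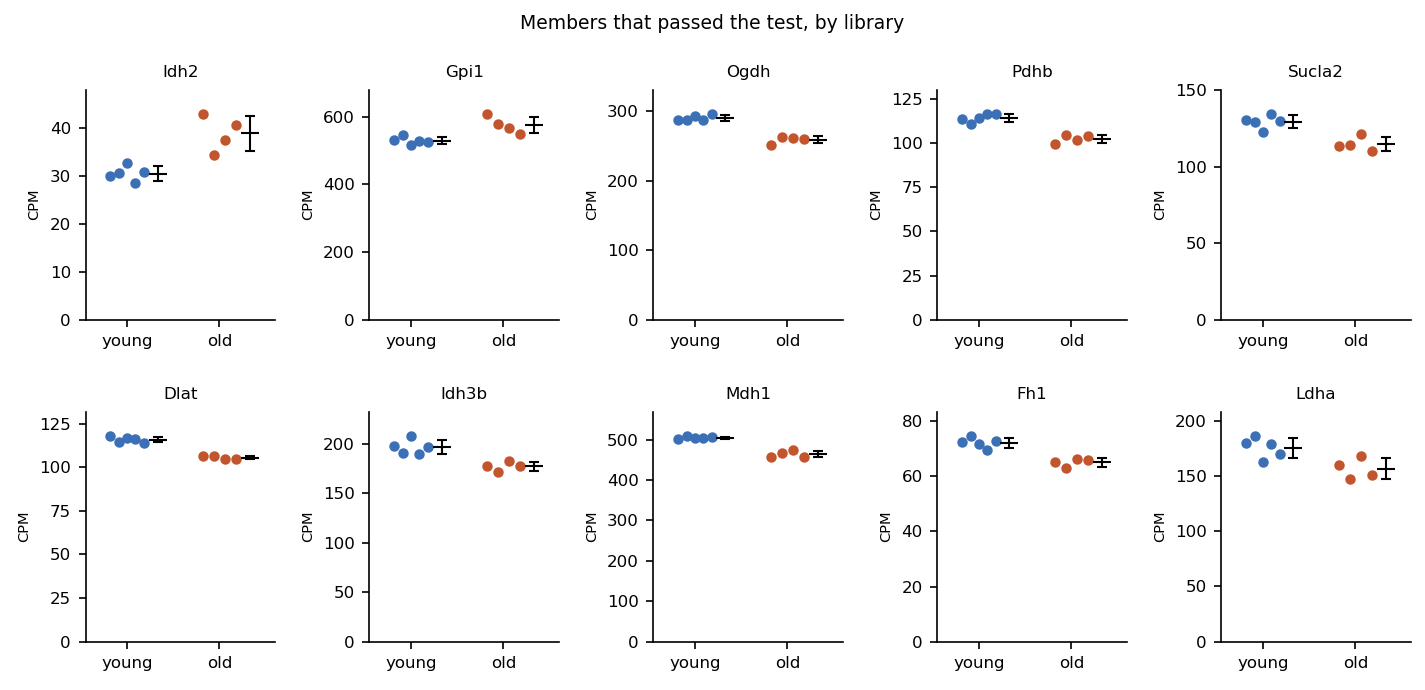
Levels in CPM (y axes from 0) of the 10 enzyme genes that passed the test, with 5 young libraries in blue, 4 old libraries in orange and the mean ± SD in black beside each group. The groups are apart for all but Ldha, and Mdh1 has the tightest young values, from 502 to 508 CPM.

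In the upper part of glycolysis, from glucose to the triose phosphates, 1 of 9 genes rose, none fell and 8 did not pass. Gpi1, glucose-6-phosphate isomerase (chr7:34201330-34230336), had 530.1, 546, 516, 528 and 527 CPM in young brains and 607, 579, 566 and 549.8 CPM in old ones. The lowest old brain was just above the highest young brain. Its mean rose by 8.73%, a log2 fold change of 0.12 ± 0.036 (SE; edgeR, adjusted p = 0.040), while on the log2(TPM + 1) scale it stood at -0.045, or 0.10 above the median of all genes. It passed in only 2 of the 9 fits that left out 1 brain each, without young replicate 2 and without old replicate 5. The adjusted p over these fits ranged from 0.032 to 0.111, highest without old replicate 1. An RNA gene on the opposite strand, Gm26762, shares 11.5% of the exon length of Gpi1.

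Hk2 had 5.75, 6.92, 7.01, 9.23 and 7.10 CPM in the young and 8.23, 7.97, 10.8 and 9.22 CPM in the old brains. Young replicate 4 was higher than each other young brain and lay within the range of the old. The log2 fold change was 0.33, with an interval from 0.06 to 0.60, and did not pass (edgeR, adjusted p = 0.11). Without young replicate 4 it was 0.44 and passed (edgeR, adjusted p = 0.023). The same brain stood apart for the summed markers of reactive astrocytes, activated microglia and microglia, though not for every marker of these lists. The reactive astrocyte list had 637 CPM there, 261 to 302 CPM in the other young brains and 605 to 865 CPM in the old. Activated microglia summed to 155 CPM there, beside 90.2 to 104 CPM in the rest of the young group and 125 to 161 CPM at the older age, and microglia to 291 CPM, beside 212 to 238 CPM and 282 to 339 CPM. Gfap alone had 514 CPM in young replicate 4, while Vim, at 46.8 CPM, lay within the range of the other young brains. P2ry12 (17.0 CPM), Tmem119 (11.6 CPM) and Sall1 (20.3 CPM) were lowest there among the young, and every other microglial marker was highest. The part of these cells in the value of Hk2 was not tested.

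The remaining genes of this stretch lay close to 0. Hk1 was at -0.01 with an interval from -0.08 to 0.07. The phosphofructokinase genes, which code for the main control point of glycolysis, stood at -0.02 for Pfkm, -0.01 for Pfkl and 0.01 for Pfkp, with intervals within -0.10 and 0.09. Aldoa was at 0.03, from -0.05 to 0.10. Aldoc was at 0.05 with the wide interval from -0.16 to 0.26, since its level ranged from 831 to 1019.6 CPM in the young and from 834 to 1079.7 CPM in the old brains. Tpi1, triose phosphate isomerase, was at -0.06 from -0.14 to 0.02.

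In the lower part of glycolysis, from the triose phosphates to pyruvate, none of 6 genes passed in edgeR's test, 3 had an unadjusted p under 0.05 and DESeq2's Wald test called the same 3. These were Pgam1, Pgk1 and Eno2. Pgam1, a phosphoglycerate mutase, ranged from 134 to 144 CPM in the young and from 125 to 131 CPM in the old, without overlap, and stood just outside the threshold with a log2 fold change of -0.11 (edgeR, adjusted p = 0.051; DESeq2, adjusted p = 0.030). Pgk1, phosphoglycerate kinase, ranged from 258 to 283 CPM in young and from 239.9 to 258 CPM in old brains, at -0.12 (edgeR, adjusted p = 0.063; DESeq2, adjusted p = 0.028). Eno2 had 742 to 761 CPM in the young and 691 to 729.8 CPM in the old, again without overlap, at -0.09 (edgeR, adjusted p = 0.10; DESeq2, adjusted p = 0.015). The glial and general enolase gene Eno1 was at -0.04, from -0.11 to 0.04, and Pkm was at -0.04, from -0.12 to 0.05.

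Gapdh, often used as a reference gene, had 1168, 1218, 1126, 1193 and 1165 CPM in the young and 1193, 1133, 1219 and 1148 CPM in the old brains. These values are interleaved. The interval of its log2 fold change ran from -0.08 to 0.08. Gapdh and other glycolytic genes have many processed pseudogenes, and reads that map to more than 1 place were not counted by the authors, so their levels are uncertain.

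Lactate dehydrogenase is a tetramer of LDHA and LDHB subunits. Ldha (chr7:46841475-46855627) had 179.5, 186, 163, 179 and 169.8 CPM in young brains and 159.8, 147, 168 and 151 CPM in old ones. The groups overlapped, since old replicate 4 was above young replicate 3. Its log2 fold change was -0.16 ± 0.046 (SE; edgeR, adjusted p = 0.029). It passed in 4 of the 9 fits that left out 1 brain and not without young replicate 1, 2 or 4 or old replicate 3 or 5, with an adjusted p of up to 0.093. Ldhb was at 0.03, with an interval from -0.04 to 0.11.

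The call of Pdhb, Dlat, Idh2, Idh3b, Ogdh, Sucla2 and Fh1 held in each of the 9 fits that left out 1 brain. In limma on the authors' log2 normalized counts, Pdhb, Dlat, Idh2 and Ogdh passed. Idh3b, Sucla2 and Fh1 did not pass there (limma, adjusted p = 0.068, 0.053 and 0.051). Fh1 also did not pass with the replicate number as a block (edgeR, adjusted p = 0.066). None of these calls held on the TPM scale. TPM values, which the authors computed by gene length and which sum to the same total in each library, put the median of all genes at -0.14 on the log2(TPM + 1) scale. There the median of the members was -0.21, none of the 34 passed in limma and 4 had an unadjusted p under 0.05. Relative to the median of all genes, Idh2 stood at 0.32, Ogdh at -0.19 and Sucla2 at -0.19 on that scale.

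Ratios of isozymes or subunits within a library do not depend on how libraries are scaled. Their size depends on the exon lengths used, while their fold difference between the ages does not. A total of 9 such ratios of counts per kb were examined in the 5 young and 4 old brains. The two-sided exact permutation test ran over all splits of the brains, and its smallest p is 0.00794. After adjustment over the 9, a single ratio at that p reaches only 0.071, so no ratio could pass alone. None of the 9 passed. The ratio of Ldhb to Ldha was 4.38, 4.52, 4.94, 4.38 and 4.93 in the young and 5.12, 5.43, 5.08 and 5.60 in the old brains. Every old brain was higher, by 1.15-fold on average (exact permutation p = 0.0238, adjusted p = 0.071). The ratio of mitochondrial Mdh2 to cytosolic Mdh1 was 0.299, 0.307, 0.295, 0.292 and 0.293 in the young and 0.323, 0.315, 0.318 and 0.328 in the old. It too was higher in every old brain, by 1.08-fold (exact permutation p = 0.00794, adjusted p = 0.071). These ratios use the same counts as the fold changes of Ldha and Mdh1 and add no independent measurement of them.

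The other ratios overlapped between the ages. Sucla2 to Suclg1 ranged from 1.84 to 2.24 in the young and from 1.76 to 1.84 in the old, a 0.900-fold difference (exact permutation p = 0.0238, adjusted p = 0.071). Pdha1 to Pdhb ranged from 1.62 to 1.79 in the young and from 1.78 to 1.83 in the old, 1.08-fold (exact permutation p = 0.0317, adjusted p = 0.071), and the highest young value belonged to young replicate 2. The Hk2 to Hk1 ratio was 1.27-fold higher in old brain (exact permutation p = 0.0794, adjusted p = 0.14), and Eno2 to Eno1 was 0.965-fold (exact permutation p = 0.111, adjusted p = 0.17). Among phosphofructokinases, Pfkl to Pfkm differed by 1.01-fold (exact permutation p = 0.524) and Pfkp to Pfkm by 1.03-fold (exact permutation p = 0.516). Aldoc to Aldoa ranged from 0.591 to 0.736 in the young and from 0.588 to 0.734 in the old brains, so the astrocyte and general aldolase genes kept overlapping proportions (exact permutation p = 0.857).

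**Figure D4:**
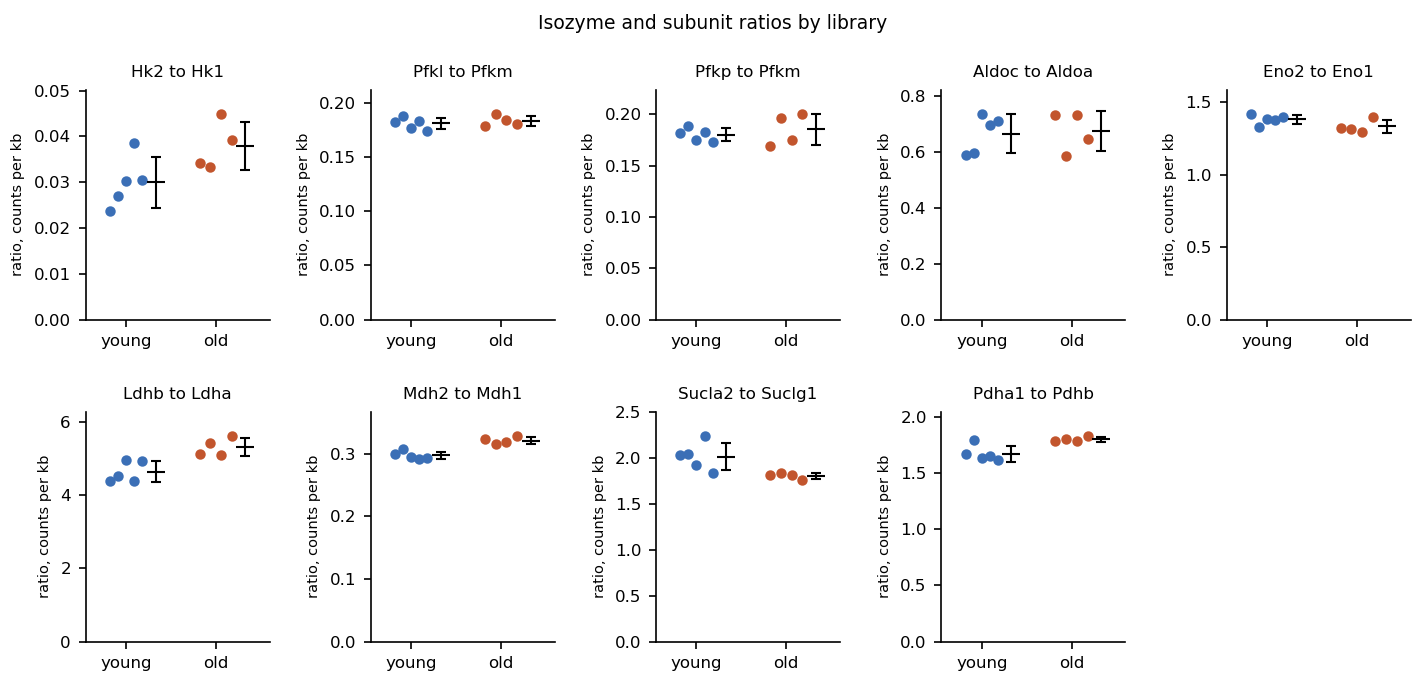
Ratios of counts per kb (y axes from 0) for 9 pairs of isozymes or subunits, with 5 young libraries in blue, 4 old libraries in orange and the mean ± SD in black. The groups are apart for Ldhb to Ldha (up to 4.94 young, from 5.08 old) and Mdh2 to Mdh1 (up to 0.307 young, from 0.315 old) and overlap for the other 7.

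Promoters were read for the members that fell, because genes that move together are often compared for shared sequence. RefSeq promoter sequences of build GRCm38.p6 were found for 33 of the 34 members (not Idh3a), and the 250 bases before the first listed start of each gene were searched on both strands for the CCAAT box (CCAAT), the hypoxia response core (ACGTG) and the E-box (CACGTG, which contains ACGTG). Shown are Pdhb, Ogdh and Fh1, which fell and hold a CCAAT box, and Ldha, a classical target of the hypoxia-inducible factor. Only the bases outside annotated exons are printed, 5′ to 3′ on the strand of the gene, and capitals mark the matches on either strand.
Pdhb, chr14:8173026-8173242, minus strand: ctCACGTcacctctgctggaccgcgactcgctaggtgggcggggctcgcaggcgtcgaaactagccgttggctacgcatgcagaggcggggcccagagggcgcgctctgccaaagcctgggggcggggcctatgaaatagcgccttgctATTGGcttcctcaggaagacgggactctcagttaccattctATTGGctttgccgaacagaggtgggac
Ogdh, chr11:6291347-6291596, plus strand: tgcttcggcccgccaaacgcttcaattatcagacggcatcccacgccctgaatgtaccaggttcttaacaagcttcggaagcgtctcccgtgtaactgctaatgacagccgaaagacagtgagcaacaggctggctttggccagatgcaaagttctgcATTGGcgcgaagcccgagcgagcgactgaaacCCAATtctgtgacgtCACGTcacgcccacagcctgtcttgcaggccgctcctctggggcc
Fh1, chr1:175625636-175625885, minus strand: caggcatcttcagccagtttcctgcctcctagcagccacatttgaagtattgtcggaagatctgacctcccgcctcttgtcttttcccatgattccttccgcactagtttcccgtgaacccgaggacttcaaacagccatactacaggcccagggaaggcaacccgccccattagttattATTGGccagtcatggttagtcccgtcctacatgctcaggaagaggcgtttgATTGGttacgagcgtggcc
Ldha, chr7:46845554-46845803, plus strand: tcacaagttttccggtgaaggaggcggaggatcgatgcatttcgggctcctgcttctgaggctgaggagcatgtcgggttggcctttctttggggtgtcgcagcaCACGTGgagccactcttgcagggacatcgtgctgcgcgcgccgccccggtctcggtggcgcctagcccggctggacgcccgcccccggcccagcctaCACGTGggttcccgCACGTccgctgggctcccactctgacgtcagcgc

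A CCAAT box was found in 14 of the 33 promoters, beside 34.5% of all 27025 promoters searched. It was present in 5 of the 8 members that fell (Fh1, Idh3b, Mdh1, Ogdh and Pdhb), in Idh2, which rose, and in 8 of the 23 that did not pass. The hypoxia response core was found in 10 of the 33, beside 16.6% of all promoters. These were Ldha, Mdh1, Ogdh and Pdhb among the members that fell, and Hk2, Idh3g, Pcx, Pfkm, Pgam1 and Pgk1 among those that did not pass. The E-box was in 3 of the 33 (Ldha, Pcx and Pfkm), beside 6.05% of all promoters. Sites of NRF1 (TGCGCA) were in 3 of the 33, beside 6.66% of all promoters, ETS sites (CCGGAAG) in 2, beside 7.05%, and an ERR site (AAGGTCA) in 1, beside 4.05%, none of them before the first listed start of a member that passed. A match of so few letters is a description of the sequence, and Ogdh and Ldha have other listed starts, before some of which the NRF1 site does occur.

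Genes around the pathway were described from a list of 78 transporters, regulators and neighbouring enzymes, of which 72 were tested. Of these, 5 rose, 5 fell and 62 did not pass, with a median log2 fold change of -0.01. These counts, out of 72, stand beside the 6.09% of all tested genes that were higher and the 4.89% that were lower. The glucose transporter genes Slc2a1 and Slc2a4 showed larger differences than any of the 34 enzymes. Slc2a1, which codes for the glucose transporter GLUT1 of the blood-brain barrier and astrocytes, had 107, 117, 117, 137 and 119 CPM in young brains and 192, 166, 241 and 164 CPM in old ones. All old brains were above all young brains, with a log2 fold change of 0.68 ± 0.13 (SE; edgeR, adjusted p = 0.014). Slc2a4, the insulin-responsive transporter GLUT4, was low but higher in every old brain, at 1.72 ± 0.118 CPM in the young (SD, n = 5) and 3.68 ± 0.927 CPM in the old (SD, n = 4), a log2 fold change of 1.11 (edgeR, adjusted p = 0.00081). The neuronal transporter gene Slc2a3 (GLUT3) had 131 CPM in the young and 132 CPM in the old and did not pass (edgeR, adjusted p = 0.86).

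Beside the rise of Slc2a1, 3 of 6 endothelial markers rose, Ly6c1 by 0.94, Pecam1 by 0.38 and Flt1 by 0.25 on the log2 scale. The other 3 did not pass, with Kdr at -0.30, Cldn5 at -0.14 and Slco1a4 at 0.11. The sum of this list ranged from 218 to 235 CPM in the young and from 247 to 287 CPM in the old libraries. Of 5 blood markers, which are close copies in the case of the hemoglobin genes, 3 rose, and their sum ranged from 86.1 to 116 CPM in the young and from 128 to 409 CPM in the old. The part of vessels and blood in the level of Slc2a1 was not tested.

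Of 5 listed carriers of pyruvate and monocarboxylates, 2 fell and 3 did not pass. Mpc2, a subunit of the mitochondrial pyruvate carrier, had 54.6, 56.5, 56.4, 57.6 and 59.2 CPM in young and 48.6, 48.7, 52.6 and 46.8 CPM in old brains, without overlap, at a log2 fold change of -0.21 ± 0.045 (SE; edgeR, adjusted p = 0.0065). Its partner subunit gene Mpc1 had 55.8 CPM in the young and 55.6 CPM in the old and did not pass, and the monocarboxylate transporter genes Slc16a1 and Slc16a3 stood at -0.17 and 0.03 without passing. Slc16a7, which codes for the neuronal monocarboxylate transporter MCT2, fell from 41.1 ± 2.55 CPM (SD, n = 5) to 34.7 ± 2.39 CPM (SD, n = 4), a log2 fold change of -0.25 (edgeR, adjusted p = 0.0099).

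Of 8 genes listed as regulators of pyruvate dehydrogenase, 1 rose and 7 did not pass. These 7 include Pdhx, which codes for a further subunit of the complex. Its old libraries all lay below the young, at a log2 fold change of -0.11 (edgeR, adjusted p = 0.16). Of 10 other genes of the TCA cycle and malic enzymes, 1 rose, 1 fell and 8 did not pass. Of 8 transcription factors and brakes of the pathway, 1 rose and 7 did not pass. Txnip, whose product restrains glucose uptake, rose by 0.56 on the log2 scale (edgeR, adjusted p = 0.021), with old replicate 5 inside the young range, and did not pass without young replicate 3 or old replicate 1 (edgeR, adjusted p up to 0.062). An antisense RNA gene on the opposite strand, Gm15441, shares 19.4% of the exon length of Txnip, so part of the reads may belong to that gene. Pdk4, a kinase that switches off pyruvate dehydrogenase, rose from 11.1 ± 0.899 to 15.1 ± 3.39 CPM (SD, n = 5 and 4), a log2 fold change of 0.44 (edgeR, adjusted p = 0.042), and passed with 1 brain left out only without old replicate 1 or old replicate 5 (otherwise adjusted p up to 0.11). The mitochondrial malic enzyme gene Me3 rose by 0.23 (edgeR, adjusted p = 0.013), and not without old replicate 5 (edgeR, adjusted p = 0.055). Cytosolic Idh1 fell by 0.23 (edgeR, adjusted p = 0.021), in the direction opposite to Idh2, but not without young replicate 1 or old replicate 1 or 5 (edgeR, adjusted p up to 0.069). Succinate dehydrogenase, the complex shared with the respiratory chain, had Sdha at -0.03, Sdhb at 0.02, Sdhc at -0.06 and Sdhd at -0.07, none of them past the threshold. Of the glycogen and sugar phosphate genes, Pgm2l1, a glucose bisphosphate synthase abundant in brain, fell by 0.26 (edgeR, adjusted p = 0.0037) and Ugp2, which makes UDP-glucose, by 0.16 (edgeR, adjusted p = 0.035). With 1 brain left out, Ugp2 passed only without young replicate 2 or old replicate 4 or 5 (otherwise adjusted p up to 0.13).

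No call in edgeR's test or in DESeq2's fell in the 8 pentose phosphate genes (2 at an unadjusted p under 0.05 in edgeR's test). The same held for the 5 genes that make or remove fructose 2,6-bisphosphate (0 at an unadjusted p under 0.05). It also held for 11 tested genes listed as other isozymes of glycolysis (1 at an unadjusted p under 0.05). Among the transcription factors, Hif1a stood at -0.01, Ppargc1a at -0.01 and Esrra at -0.10, and none of these passed.

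**Figure D5:**
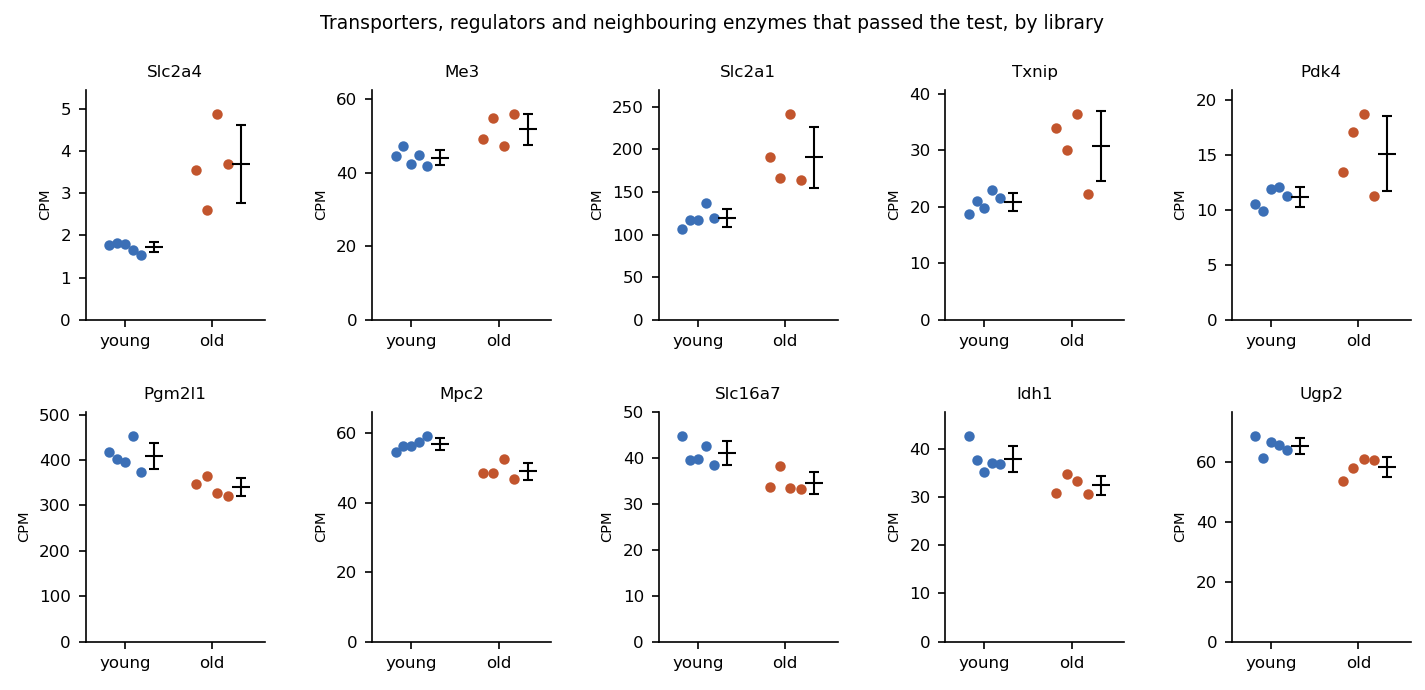
Levels in CPM (y axes from 0) of the 10 listed genes around the pathway that passed the test, with 5 young libraries in blue, 4 old libraries in orange and the mean ± SD in black; the upper row holds the 5 that rose and the lower row the 5 that fell. Slc2a1 and Slc2a4 show the widest separation upward, and the old points of Txnip and Pdk4 reach into the young range.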

How the data were processed

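Per the study's methods, the authors cleaned reads with Trimmomatic, mapped them to Ensembl GRCm38 with STAR and used featureCounts for unique reads in exons. The deposited counts are integers per gene. In the deposited normalized counts (17994 genes), a signal, the authors used 1 size factor per library. For the deposited TPM, the gene lengths that the authors divided by are not given in the sources used here. In every table, 1 more per-sample column, headed as old replicate 2, matches no sample used here and was not analysed here.

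The members and all lists were chosen with earlier results of these data known. Each member is named, and of the wider lists the genes with an adjusted p under 0.05, at most 12; other genes were named after their values were seen. The filter was filterByExpr of edgeR 4.0.16, with a minimum count of 10 and 15 in total. Libraries were scaled by TMM and tested with the robust quasi-likelihood test with Benjamini-Hochberg adjustment over all genes kept. Standard errors come from the fold change and the test statistic. On simulated data, the procedure called 45% of genes given a log2 change of 0.3 and 87% of those given 1. Of its calls there, 6.38% were false. The changed genes were drawn at random from tested genes above a low level. These shares therefore need not hold for the enzymes, whose differences were mostly smaller than 0.3 and whose standard errors were mostly smaller. Brains were separate mice, and libraries of an age differed by more than sampling noise. DESeq2 1.42.0 and limma 3.58.1 (R 4.3.3) served as alternatives, with other size factors, filters, scales and thresholds, a replicate block and each brain left out in turn. Symbols and exon lengths came from GENCODE M21 of GRCm38. Aldoa was taken as ENSMUSG00000030695. Of the wider lists, 1 gene is not reported here.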

Additional observations from a re-analysis of the deposited data

Results flagged for a closer look

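Among 106 groups of 4 or 5 libraries examined for a library far from the others (Dixon's ratio at 95%), 4 held such a library, where chance gives about 5.3. Eno1 in young replicate 2 was 654 CPM, beside 608 to 619 CPM in the other young brains. Suclg1 in old replicate 4 was 77.0 CPM, beside 71.9 to 72.5 CPM in the other old brains. Slc16a7 in old replicate 3 was 38.3 CPM, beside 33.4 to 33.7 CPM in the other old brains. The ratio of Pdha1 to Pdhb in young replicate 2 was 1.79, beside 1.62 to 1.67 in the other young brains. Young replicate 2 was also the highest young library for 17 of the 34 enzymes, and old replicate 4 the highest old library for 16.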

How the results depend on the processing

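The counts of enzymes called, 2 higher and 8 lower, became 0 and 0 in limma on log2(TPM + 1) and on log2(TPM + 0.1), where the medians of the members were -0.21 and -0.21 and Gpi1 stood at -0.045 and -0.045. The median of all genes was -0.14 and -0.16 there, and on log2(TPM + 1) Gpi1 lay 0.10 above it. The counts were 1 and 3 in limma on the authors' log2 normalized counts, 1 and 3 at an adjusted p under 0.01, and 0 and 0 with the fold threshold of 0.58. The cause was not tested. All genes called, 2031, became 465 and 389 on these TPM scales and 1024 on the normalized counts. DESeq2's Wald test gave 2 and 11, adding Eno2, Pgam1 and Pgk1. The test without the robust option, chosen after the data were seen, gave 2 and 9. With 1 brain left out, the members' counts ranged from 1 to 2 higher and from 6 to 8 lower, their median from -0.05 to -0.03 and all genes called from 1516 to 2034. The log2 ratios then ranged from 0.26 to 0.44 for Hk2 to Hk1, 0.0024 to 0.033 for Pfkl to Pfkm, -0.0019 to 0.079 for Pfkp to Pfkm, -0.024 to 0.083 for Aldoc to Aldoa, -0.075 to -0.036 for Eno2 to Eno1, 0.17 to 0.22 for Ldhb to Ldha, 0.10 to 0.12 for Mdh2 to Mdh1, -0.18 to -0.11 for Sucla2 to Suclg1 and 0.10 to 0.13 for Pdha1 to Pdhb. With the replicate block, 2 members were higher and 7 lower (without Fh1), their median was -0.04 and 1828 genes were called, but libraries sharing a number correlated from -0.12 to 0.17, so the numbers did not pair the brains.

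Depth limited Hk2, with a lowest count of 102, more than the other members. The limits were 9 brains, small differences and mixed cell types.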
